A study of Mus musculus with 8 samples.

Results

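Pyruvate dehydrogenase (PDH) is the mitochondrial complex that turns pyruvate into acetyl-CoA and so commits carbon from glucose to oxidation or to fatty acid synthesis. The 10 genes described here encode its kinases (*Pdk1*, *Pdk2*, *Pdk3* and *Pdk4*), its catalytic and core subunits (*Pdha1*, *Pdhb*, *Dlat* and *Pdhx*) and the mitochondrial pyruvate carriers (*Mpc1* and *Mpc2*). They were selected by gene symbol from the 27179 genes of the deposited table, in which all 10 were found. The liver RNA came from 8 adult males of the strain C57BL/6NHsd after a 6 h fast, 4 of them wild-type (V227) and 4 homozygous for the V227A substitution in PPARɑ. The substitution was made by base editing of C57BL/6NHsd zygotes and is carried in every tissue, and the colony descends from 1 founder backcrossed to the same strain. The groups share strain, sex and fast, and differ by the genotype at *Ppara*.

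Pyruvate enters the mitochondrial matrix through a carrier made of MPC1 and MPC2. Inside the complex, E1 (a tetramer of PDHA1 and PDHB) decarboxylates it, E2 (DLAT) passes the acetyl group to coenzyme A, and E3 (DLD) restores the lipoyl arm, with PDHX holding E3 to the E2 core. PDH kinases phosphorylate the E1 alpha subunit and switch the complex off, and PDH phosphatases remove the phosphate. In fasting the kinases spare pyruvate for glucose production, and *Pdk4* is widely known as a target gene of PPARɑ.

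The values used here are the authors' average log2 CPM (reads scaled to library size, on a log2 scale), 1 value per gene over all 8 libraries. Values per library were not analysed here, and the authors' own genotype comparison, which the same table holds, was not used. No level per mouse or genotype, no spread between mice and no test of V227A against wild-type is therefore given, and every level below is a mean over both genotypes. The lowest value of the table, -3.78, is shared by 8242 genes and was read as no reads at all, which leaves 18937 genes with reads. With a prior count of 2, a mean effective library size of 27473997 would give that lowest value. This size stands for counted reads after any scaling between libraries, not for reads sequenced. How deep any one library was is unknown. Levels were compared between genes as CPM per kilobase (kb) of exon, after the prior count was removed. The lengths come from GENCODE vM21, while the annotation on which the authors counted reads is not given in the sources used here. The exons counted may therefore differ from those used as length, which the intervals do not cover. The 95% intervals (exact Clopper-Pearson, from estimated reads) cover counting error only and not the spread between mice.

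The tissue label was checked against markers. The 6 hepatocyte genes lay between 332 CPM per kb (*Cps1*) and 29709 (*Alb*). The summed level was 46.3 for the 4 Kupffer cell genes, 22.5 for the 3 endothelial genes, 4.45 for the 3 stellate cell genes and 3.85 for the 3 cholangiocyte genes. Skeletal and heart muscle, where *Pdk4* is also expressed, had a summed level of 0.571 over 5 genes, with *Myh6* listed without reads. Adipose markers summed to 0.193 over 3 genes. Of the 3 pancreas genes, *Prss2* and *Ins2* had no reads, whereas *Cela1* stood at 13.0. How much of each member's RNA came from cells other than hepatocytes was not tested.

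The kinase genes spanned the widest range of level of the 3 roles, so the stretch around each gene's first listed start is shown. It runs from 250 bases before to 50 after the start, 5′ to 3′ on the gene's strand (RefSeq, GRCm38.p6). *Pdk1* and *Pdk2* have 2 listed promoters each, and only the first was searched. Capitals mark exact matches to GGGCGG, known as the GC box, to the CCAAT box and to the E-box CACGTG. Both strands were searched, so that ATTGG marks a CCAAT box on the other strand. *Pdk1* lies at chr2:71872974-71873273 on the plus strand. The other 3 lie on the minus strand, *Pdk2* at chr11:95041322-95041621, *Pdk3* at chrX:93832101-93832400 and *Pdk4* at chr6:5496229-5496528.
Pdk1: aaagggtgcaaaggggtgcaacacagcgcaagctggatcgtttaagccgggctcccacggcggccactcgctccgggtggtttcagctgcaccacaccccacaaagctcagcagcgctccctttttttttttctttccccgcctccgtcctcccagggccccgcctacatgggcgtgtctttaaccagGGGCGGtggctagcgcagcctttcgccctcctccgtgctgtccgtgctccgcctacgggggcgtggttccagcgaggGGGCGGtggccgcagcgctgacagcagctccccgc
Pdk2: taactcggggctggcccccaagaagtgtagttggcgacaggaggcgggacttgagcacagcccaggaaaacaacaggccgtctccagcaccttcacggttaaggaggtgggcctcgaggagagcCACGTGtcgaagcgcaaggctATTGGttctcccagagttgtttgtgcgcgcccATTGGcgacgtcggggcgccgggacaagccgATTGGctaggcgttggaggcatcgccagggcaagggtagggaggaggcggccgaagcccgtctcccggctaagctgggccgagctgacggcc
Pdk3: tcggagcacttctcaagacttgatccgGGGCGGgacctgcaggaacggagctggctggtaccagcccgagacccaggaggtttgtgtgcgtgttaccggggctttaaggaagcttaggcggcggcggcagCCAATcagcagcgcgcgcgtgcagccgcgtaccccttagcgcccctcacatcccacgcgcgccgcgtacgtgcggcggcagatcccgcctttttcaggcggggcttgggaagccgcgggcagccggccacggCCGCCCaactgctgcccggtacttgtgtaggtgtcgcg
Pdk4: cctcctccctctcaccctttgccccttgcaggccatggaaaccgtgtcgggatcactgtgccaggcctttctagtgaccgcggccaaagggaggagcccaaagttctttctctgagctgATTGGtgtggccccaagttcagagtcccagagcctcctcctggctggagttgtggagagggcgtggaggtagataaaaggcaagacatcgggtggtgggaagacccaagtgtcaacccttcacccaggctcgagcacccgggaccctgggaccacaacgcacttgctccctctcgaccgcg

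Among the kinase genes, *Pdk2* made up most of the kinase mRNA and *Pdk1* most of the rest. *Pdk2*, the most widely expressed of the family, had an average log2 CPM of 7.69, or an estimated 5673 reads per library. Per length this was 65.3 CPM per kb (95% counting interval 64.7 to 65.9), the highest of the 10 genes and above 96.4% of the 17956 genes with reads and a known length. *Pdk1*, a kinase known for its induction by hypoxia, followed with 8.41 CPM per kb (8.27 to 8.54) and an estimated 1797 reads per library. *Pdk2* was 7.77 times as high as *Pdk1* per length.

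*Pdk4* and *Pdk3* stood far below both. *Pdk4*, the starvation-induced kinase, had an average log2 CPM of 1.29 and an estimated 65.0 reads per library in these livers after a 6 h fast. The samples hold no fed or longer-fasted livers, so the response of *Pdk4* to fasting was not tested. Its level was 0.674 CPM per kb (0.617 to 0.734), below the median of all genes with reads (1.07) and at the percentile 44.8. *Pdk2* was 96.9 times and *Pdk1* 12.5 times as high as *Pdk4*. *Pdk3* was the lowest of the 10 genes, with an average log2 CPM of -1.90, an estimated 5.38 reads per library and 0.0765 CPM per kb (0.0553 to 0.103). *Pdk4* was 8.82 times as high as *Pdk3*, whose few reads limit the precision of any comparison with it.

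As shares of the summed kinase level of 74.4 CPM per kb, *Pdk2* took 87.7% (counting interval 87.5 to 87.9), *Pdk1* 11.3% (11.1 to 11.5), *Pdk4* 0.905% (0.829 to 0.986) and *Pdk3* 0.103% (0.0743 to 0.138). Without division by length, *Pdk2* held 75.2% and *Pdk1* 23.8% of the kinase reads, since *Pdk1* has 7779 bases of annotated exon against 3163 for *Pdk2*. The order *Pdk2*, *Pdk1*, *Pdk4*, *Pdk3* was the same under each of the length settings tried. mRNA shares say nothing of the amount or activity of each kinase protein.

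**Figure D1:**
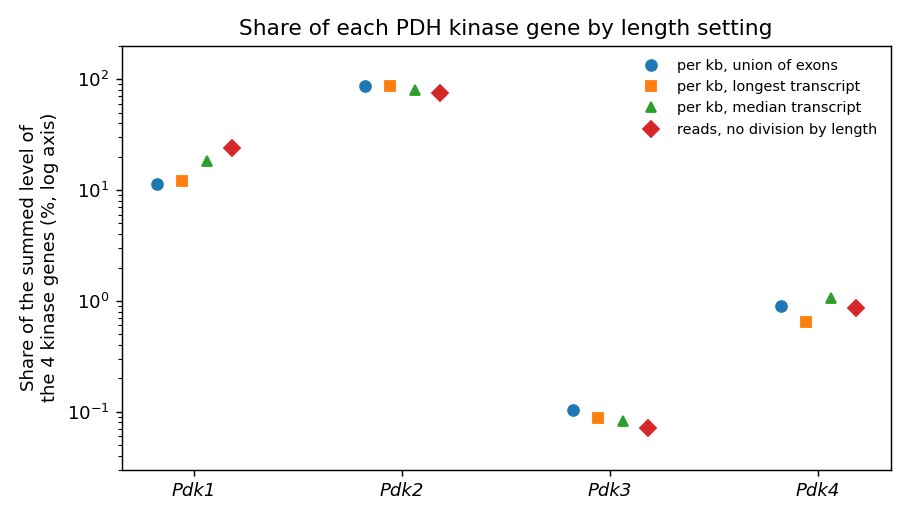
Share of each of the 4 PDH kinase genes in their summed level (percent, log axis) from the pooled value over 8 libraries, with 1 symbol for each way of handling gene length. *Pdk2* sits between 75.2% and 87.7% in all settings, and *Pdk4* and *Pdk3* lie near or below 1.07%.

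The subunits of the complex were all well measured, with at least 817 reads per library by estimate. *Pdha1*, the E1 alpha subunit that carries the phosphorylation sites of the kinases, had an average log2 CPM of 6.73 and 28.3 CPM per kb (28.0 to 28.7), at the percentile 92.8. *Pdhb*, its E1 beta partner, had 6.36 and 21.3 CPM per kb (21.0 to 21.6). The *Pdha1* to *Pdhb* ratio per length was 1.33 (1.30 to 1.36), and 1.07 when the longest transcript set the length. *Pdha1* is the somatic gene on chromosome X, and its testis paralogue *Pdha2* had no reads.

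*Dlat*, the E2 acetyltransferase, and *Pdhx*, the E3-binding protein, stood lower and side by side. *Dlat* had an average log2 CPM of 5.16 and 7.28 CPM per kb (7.12 to 7.45), and *Pdhx* had 4.90 and 7.56 (7.38 to 7.75). These separate counting intervals overlap, while that of the *Pdhx* to *Dlat* ratio of 1.04 ran from 1.005 to 1.07. The ratio moved to 1.34 with the longest transcript and to 0.260 with the median transcript length. No order between *Pdhx* and *Dlat* is therefore given. *Pdha1* was 3.89 times as high as *Dlat* per length. *Dld*, the E3 subunit shared with other 2-oxoacid dehydrogenases, stood at 25.5 CPM per kb. That is above *Pdhb* and within the counting interval of *Mpc2* (25.3 to 25.8).

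The pyruvate carrier genes differed although their products form one carrier. *Mpc2* had an average log2 CPM of 7.55, an estimated 5160 reads per library and 25.6 CPM per kb (25.3 to 25.8). *Mpc1* had 3.52, an estimated 313 reads per library and 5.47 CPM per kb (5.25 to 5.68). *Mpc2* was thus 4.68 times as high as *Mpc1* per length (counting interval 4.49 to 4.87), 3.95 times with the longest transcript and 10.3 times with the median transcript length. Before division by length, *Mpc2* had 188 CPM over 7344 bases of annotated exon, and *Mpc1* 11.4 CPM over 2082, so the size of the gap depends on the length used. Part of *Mpc1* is shared with other genes. Of its annotated 50-base stretches, 26.3% also occur in another gene, 15.3% in *4930506C21Rik*, which overlaps it on the other strand, and 11.0% in the processed pseudogene *Mpc1-ps*. In the overlap with *4930506C21Rik*, the strand of a read could tell the genes apart if the counting used it. How reads from such stretches were counted is not given in the sources used here, and their part in the *Mpc1* level was not tested. For *Mpc2* the shared portion was 0.122%.

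**Figure D2:**
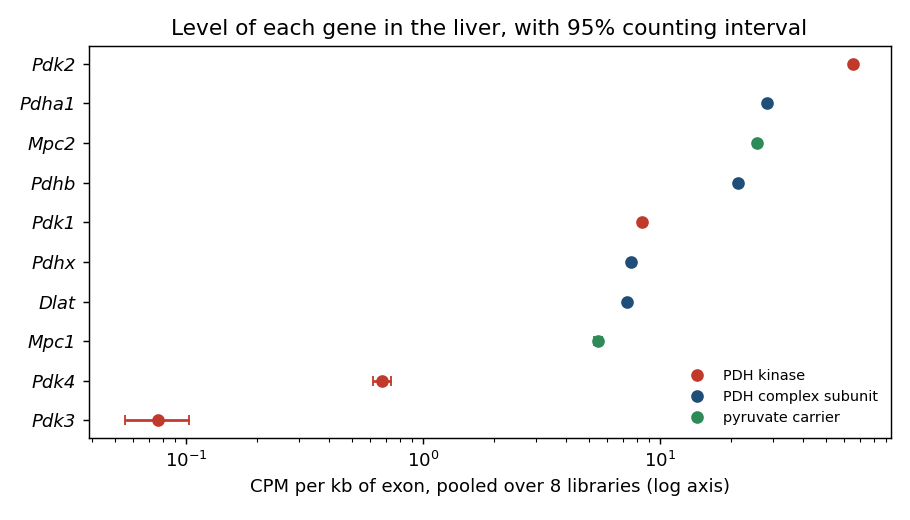
Level of each of the 10 genes as CPM per kb of exon (log axis), pooled over 8 libraries, with the 95% counting interval as a horizontal bar. *Pdk2* is highest at 65.3, most genes lie between 5.47 and 28.3, and *Pdk4* and *Pdk3* are lowest at 0.674 and 0.0765.

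Ordered by level per length, the genes ran *Pdk2*, *Pdha1*, *Mpc2*, *Pdhb*, *Pdk1*, then *Pdhx* and *Dlat* with no order between them, then *Mpc1*, *Pdk4* and *Pdk3*, and the highest was 854 times the lowest. *Pdha1* and *Mpc2* changed places when the longest or the median transcript set the length and without division by length. *Mpc1* stood above *Dlat* with the longest transcript. With the median transcript length *Pdhx* fell below both *Dlat* and *Mpc1*, and without division by length it stood below *Dlat*. *Pdk2* stayed first and *Pdhb*, *Pdk1*, *Pdk4* and *Pdk3* kept their places in each of these settings. The median of the 10 genes was 7.98 CPM per kb, against 1.07 over all genes with reads. *Pdk4* and *Pdk3* were the members below that overall median.

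**Figure D3:**
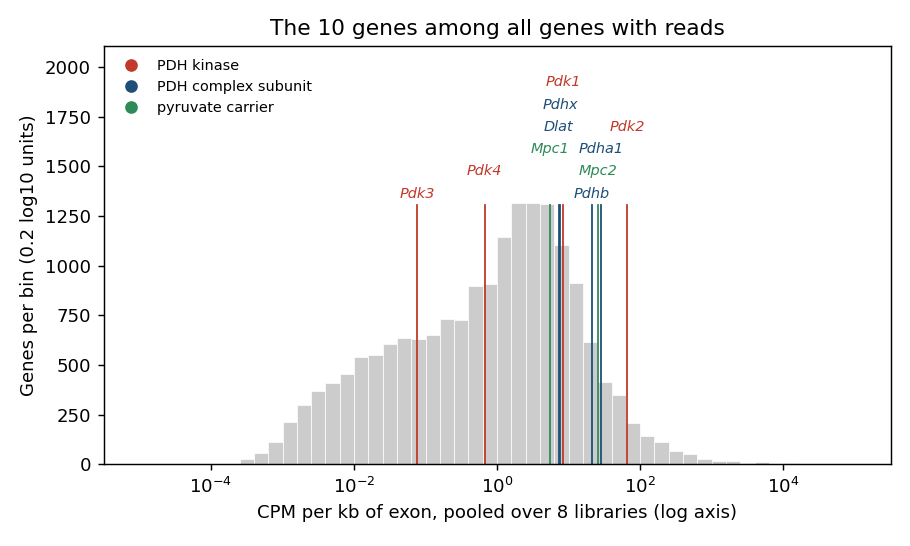
Number of genes in bins of CPM per kb of exon (log axis) over the 17956 genes with reads and a known length, with a coloured line at each of the 10 genes. *Pdk3* and *Pdk4* lie left of the peak of the distribution, and *Pdk2* is farthest right, above 96.4% of genes.

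The genes around PDH were read from lists. Their levels use the union of exons only. No other length setting was tried on them and no counting interval is given, so the size of each gap depends on that length. Of the PDH phosphatase genes, *Pdp2*, the isoform known from liver and fat, had 4.34 CPM per kb, whereas *Pdp1*, the calcium-stimulated isoform of muscle, had 0.101. *Pdpr*, the regulatory subunit of the phosphatase, had 0.545. The sum of the 3, which includes the regulatory subunit, was 4.98, against 74.4 for the kinase genes. These mRNA sums say nothing of the amount or activity of the proteins. In the lipoylation list, which supplies the lipoyl group of *Dlat*, the 4 genes ran from 1.58 (*Lipt2*) to 8.40 (*Lias*, lipoic acid synthase).

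The sister complexes use the same chemistry on other keto acids. Of these 9 genes the highest was *Bckdha*, the E1 alpha subunit for branched-chain keto acids, with 160 CPM per kb, and the lowest was *Ogdhl* with 0.00658. *Bckdk*, the kinase of that complex, had 4.21, so that the kinase gene lay far below its E1 alpha target, whereas *Pdk2* was 2.30 times as high as *Pdha1*. *Ppm1k*, the phosphatase of the branched-chain complex, had 9.90. *Ogdh*, the E1 subunit of the 2-oxoglutarate complex, had 44.0.

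Of 12 genes for other enzymes that make or use pyruvate, 5 stood above each PDH subunit gene. *Ldha*, the liver form of lactate dehydrogenase, had 145 CPM per kb, and the alanine aminotransferase genes *Gpt* and *Gpt2* had 125 and 118. *Pcx*, the pyruvate carboxylase that starts glucose production from pyruvate, had 109, against 28.3 for *Pdha1*. *Pklr*, the liver pyruvate kinase, had 63.5, whereas *Pkm*, the form of muscle and dividing cells, had 1.85. Of the malic enzyme genes, *Me1* (cytosolic) had 22.9 and *Me2* and *Me3* (mitochondrial) had 0.167 and 0.00722. *Ldhd*, which acts on D-lactate, had 23.2, *Ldhb* had 1.13, and *Ldhc*, the testis form, had no reads.

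**Figure D4:**
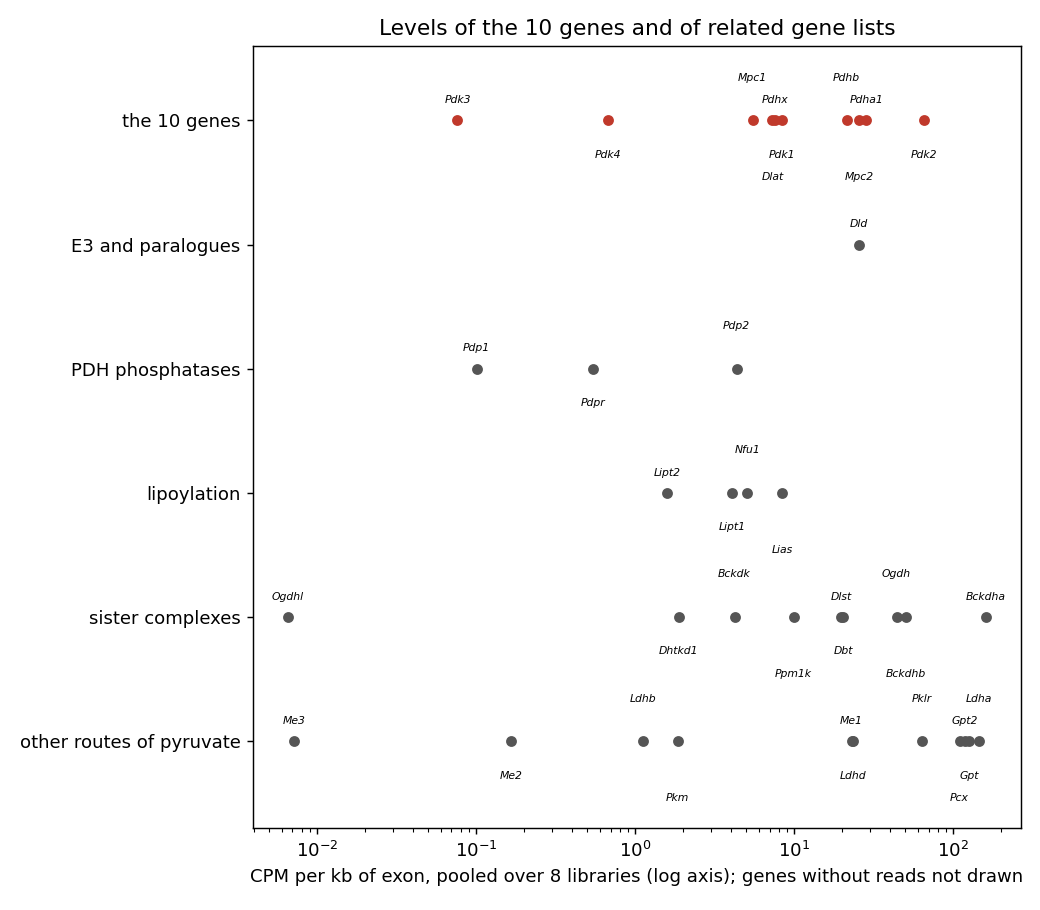
CPM per kb of exon (log axis), pooled over 8 libraries, for the 10 genes (red) and for the genes of 5 related lists (grey), with genes without reads left out. The PDH phosphatase genes lie at or below 4.34, and 5 genes of pyruvate's other routes lie between 63.5 and 145.

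The first listed promoters of the 10 genes were rich in G and C. Their GC content ran from 60.7% (*Pdk4*) to 73.7% (*Mpc1*), all above the median of 56.0% over the first listed promoters of 18458 genes of the table. The ratio of observed to expected CpG was 0.436 for *Pdk4*, the lowest of the 10, with 12 CpG against 25 for *Pdk2* and 35 for *Pdk3*. The median over all those promoters was 0.567, and the other 9 members lay above it, between 0.677 and 1.01. The highest ratio belonged to *Pdk3*, the gene with the lowest level.

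The sequences printed above show how the kinases differ in simple letters. *Pdk2* held 3 CCAAT boxes and 1 E-box, 126 bases before the start, and no GC box. *Pdk1* and *Pdk3* held 2 GC boxes each, *Pdk3* and *Pdk4* 1 CCAAT box each. Over the 10 members, 7 held a GC box and 7 a CCAAT box, against 46.0% and 39.1% of all promoters of the same length. The other motifs searched on both strands were TATAAA, TGACGTCA (cAMP response element), GTAAACA (FOXO) and AGGTCA (the half-site of nuclear receptors), and 0 of the 10 held any of them, against 13.1%, 2.36%, 3.02% and 14.5% of all promoters. A pair of AGGTCA half-sites 1 base apart (DR1), the arrangement PPARɑ and RXR are known to bind, was in 0 of the 10 and in 0.0596% of all promoters. DR1 contains the half-site, and the search allowed no mismatch, so this says only that these letters are not in these windows. For *Pdk1*, *Pdk2* and *Mpc1*, which have 2 listed promoters each, only the first was searched.

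The genes also differ in annotation. In GENCODE vM21 on GRCm38 they have 3 to 8 transcripts each, and *Pdha1* and *Pdk3* are on chromosome X. The subunit genes are *Pdha1* (chrX:160122209-160138413, minus strand), *Pdhb* (chr14:8165996-8173025, minus), *Dlat* (chr9:50634633-50659780, minus) and *Pdhx* (chr2:103021075-103073513, minus). The carrier genes are *Mpc1* (chr17:8282904-8297661, plus) and *Mpc2* (chr1:165460637-165481214, plus). The kinases share no 50-base stretch with each other or with any other member, so no exact match of that length could split reads among them. *Pdha1* shares 603 bases of exon with *Map3k15* on the opposite strand, 16.1% of its annotated exon. For *Pdhb*, 11.4% of 50-base stretches occur elsewhere, nearly all in the processed pseudogene *Gm6123* (10.8%). Whether the counting used the strand is not given in the sources used here, so it is unknown whether reads of *Pdha1* and *Map3k15* in the overlap were kept apart. *Pdk1*, *Pdk2*, *Pdk3* and *Dlat* shared 0% of their stretches with any gene.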

How the data were processed

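RNA from frozen livers of 4 wild-type and 4 V227A mice was made into stranded poly-A libraries and sequenced as read pairs. The submitters' processing notes name Trimmomatic, FastQC, STAR, featureCounts and edgeR with GRCm38/mm10, and versions, annotation and strand setting are not given in the sources used here. Of the table the authors deposited, only the average log2 CPM (edgeR, over all libraries, with a prior count) was used. The table also holds the authors' own comparison of the genotypes (fold change, F, p and adjusted p), which was not used, and it has 0 columns of values per library, so the planned edgeR test was not run.

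Mean reads were estimated from the lowest value with a prior count of 2. For the 2378 genes estimated at 1 to 5 reads in all, the estimate fell within 0.1 of a whole number in 99.9%. The estimate was also run on simulated data built with the same prior count. That run cannot show whether the authors' values had this prior count. Levels were divided by the union of exons in GENCODE vM21, known for 94.8% of genes with reads. Whether the authors counted reads over these same exons is unknown. Python 3.11.15, pandas 2.3.3, numpy 2.4.6, scipy 1.17.1 and matplotlib 3.10.9 were used. The members and lists were chosen with earlier results of these data known, and all 10 members and all genes of the lists could be named. A further list is not reported here. *Mpc1l*, also on a list, had no matching symbol. Other length settings, the prior count and another set of ranked genes were tried as alternatives for the 10 members.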

Additional observations from a re-analysis of the deposited data

How the results depend on the processing

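No paired analysis was possible because the values used are pooled over all 8 libraries, and for the same reason no mouse could be left out and the genotype test was not run under any setting. Gene length was the choice that moved levels most. With the longest transcript, the median of the 10 genes was 12.2 CPM per kb, the kinase shares were 87.3% (*Pdk2*), 11.97% (*Pdk1*) and 0.645% (*Pdk4*), and the ratios were 1.07 (*Pdha1* over *Pdhb*), 1.34 (*Pdhx* over *Dlat*) and 0.253 (*Mpc1* over *Mpc2*). With the median transcript length, which short partial transcripts pull down, the median was 62.7, the shares were 80.6%, 18.2% and 1.07%, and the ratios were 1.22, 0.260 and 0.0976 in the same order. Without division by length the shares were 75.2% (*Pdk2*), 23.8% (*Pdk1*) and 0.0713% (*Pdk3*). With the prior count left in, the *Pdk3* share was 0.141%, and 9 of 10 levels stayed within their counting interval. All 10 levels rose with the longest transcript (by 1.01 to 2.17 times) and with the median length (1.89 to 8.39 times). Ranked only against genes with an average log2 CPM of at least 0, *Pdk4* fell to the percentile 15.5. Depth limits *Pdk3* most, at an estimated 43.0 reads over all libraries.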
